A study of Mus musculus with 12 samples.

Results

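The clustered protocadherins were examined at the level of their messenger RNA in the mouse ventral hippocampus. Members were taken by symbol, as every gene named Pcdha, Pcdhac, Pcdhb, Pcdhga, Pcdhgb or Pcdhgc with a number, and 53 of the 17564 genes in the deposited tables met this rule. Of these, 11 belonged to the alpha cluster, 21 to the beta cluster and 21 to the gamma cluster.

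Male C57BL/6 mice were either wild type (WT) or heterozygous for the BDNF Val66Met knock-in (BDNF het-Met), in which methionine replaces valine in the pro-region of brain-derived neurotrophic factor. From 2 months of age they drank corticosterone (CORT, 25 mg/l in 1% ethanol) or the vehicle (VEH, 1% ethanol) for 6 weeks. Each of the 4 combinations of genotype and treatment had 3 RNA-seq libraries, and each library held RNA pooled from 2 animals, so that the 12 libraries did not stand for single mice. The allele was carried by every cell of the animal and was not limited to a cell type, and ventral hippocampus was taken as whole tissue.

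The value used for each gene was the authors' mean log2 CPM, a read count scaled to the total of its library, which was identical in the WT and BDNF het-Met tables for all 17564 genes and was therefore taken as a mean over all libraries. It has no value per library and no error, so that no difference between members below was tested. The CORT effect in each genotype was not analysed here, since the tables give it only as the authors' own comparison. The levels therefore describe the family across both genotypes and both treatments together. In whole tissue, fewer cells that use an isoform and less RNA in each such cell cannot be told apart.

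Clustered protocadherins are cadherin-like adhesion proteins of neurons that bind an identical isoform on the facing membrane. Each neuron uses only some of the variable isoforms, and the combination gives its branches an identity by which they recognise and avoid each other. In the alpha and gamma clusters each variable exon has its own promoter and codes for the extracellular and transmembrane parts, and is spliced to constant exons that code for a shared cytoplasmic tail. Beta genes have no constant exons. The last isoforms of the alpha and gamma clusters, known as C-type, differ in sequence from the others and are known to be chosen less randomly.

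The 3 clusters lie in a row on the plus strand of chromosome 18 in the GRCm38 build, the authors' build. The alpha cluster spans 36930184 to 37187661, the beta cluster 37264938 to 37524479 and the gamma cluster 37661793 to 37841873. All 14 annotated alpha genes share 2860 exon bases in 3 stretches, and all 22 gamma genes share 2116 bases in 3 stretches. A read in these constant exons belongs to no single isoform. For this reason levels were compared between genes per kilobase (kb) of own bases, meaning exon bases that no other annotated gene on the same strand shares. Own bases made up a median of 46.5% of the exon bases in the alpha cluster, 55.4% in the gamma cluster and 100% in the beta cluster. How the authors' counting treated reads over shared exons is not given in the sources used here.

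**Figure D1:**
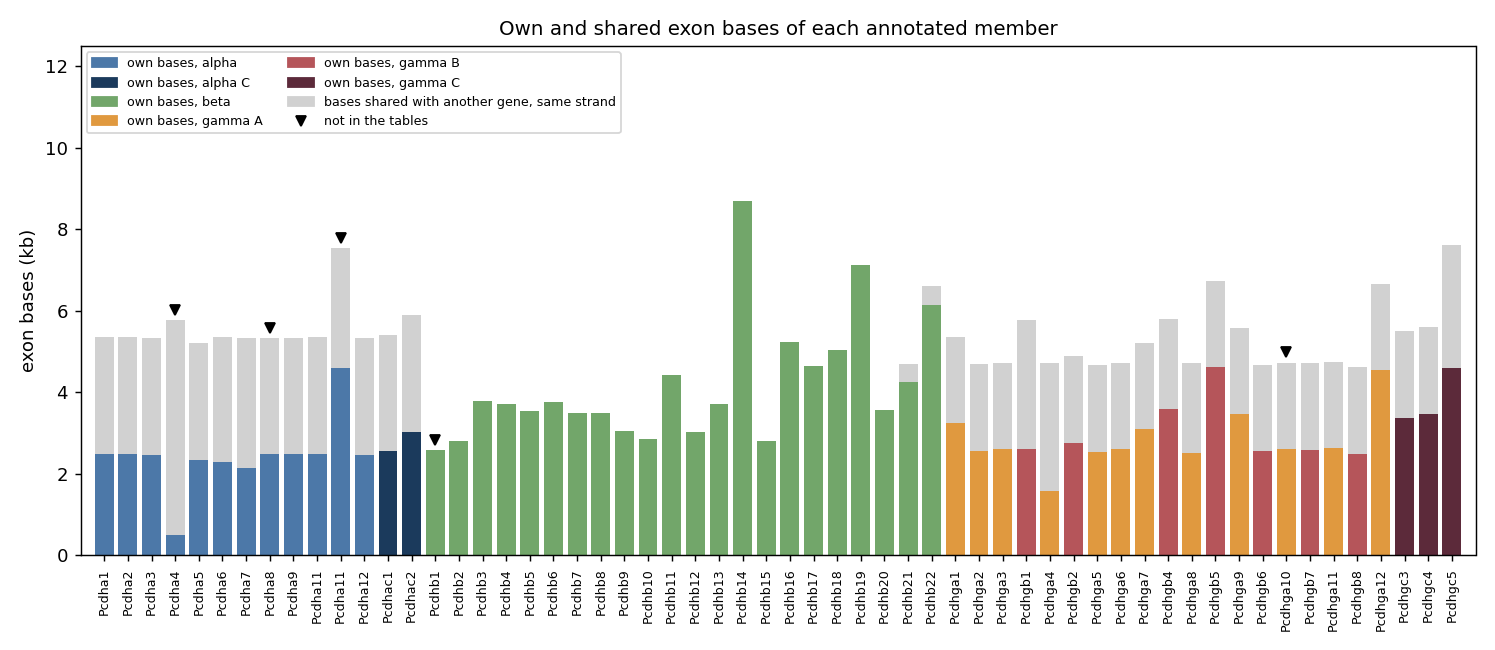
Exon bases of each of the 58 annotated members in order along the chromosome, in kb. Coloured bars are own bases, grey bars are bases shared with another gene on the same strand, and triangles mark the 5 members that are not in the tables. Pcdha4 has the shortest coloured bar, at 494 bases.

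The gamma cluster had the highest level of the 3. Its median was 2.00 log2 CPM per kb, against 0.43 in the beta cluster and 0.37 in the alpha cluster, which put the gamma median 2.98-fold above beta and 3.11-fold above alpha. With all exon bases as length, shared ones included, the gamma median lay 1.65-fold above beta and 3.65-fold above alpha. The beta and alpha medians lay 0.06 apart on the log2 scale per kb of own bases, a 1.04-fold difference that was 2.21-fold with all exon bases. All these medians cover listed members only, which were 11 of 14 annotated alpha genes, 21 of 22 beta genes and 21 of 22 gamma genes. Without length scaling the medians were 1.72 log2 CPM in alpha, 2.39 in beta and 3.39 in gamma. On that scale they fell at percentiles 26.5, 32.6 and 43.8 of all listed genes. Most of the family was thus in the lower part of the tables: 5 of the 53 members exceeded the all-gene median of 3.87 log2 CPM, and 13 of 53 exceeded the all-gene median of 1.98 log2 CPM per kb. Of those 13, 11 were gamma members, 1 was alpha (Pcdhac2) and 1 was beta (Pcdhb9).

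The members' values added up unevenly. With each mean log2 CPM turned back to CPM, the gamma cluster held 59.5% of the summed family level, the beta cluster 27.1% and the alpha cluster 13.4%. Per kb of own bases the shares were 61.6%, 21.9% and 16.5%. The 5 C-type isoforms held 36.3% of the summed CPM, and 32.3% per kb.

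**Figure D2:**
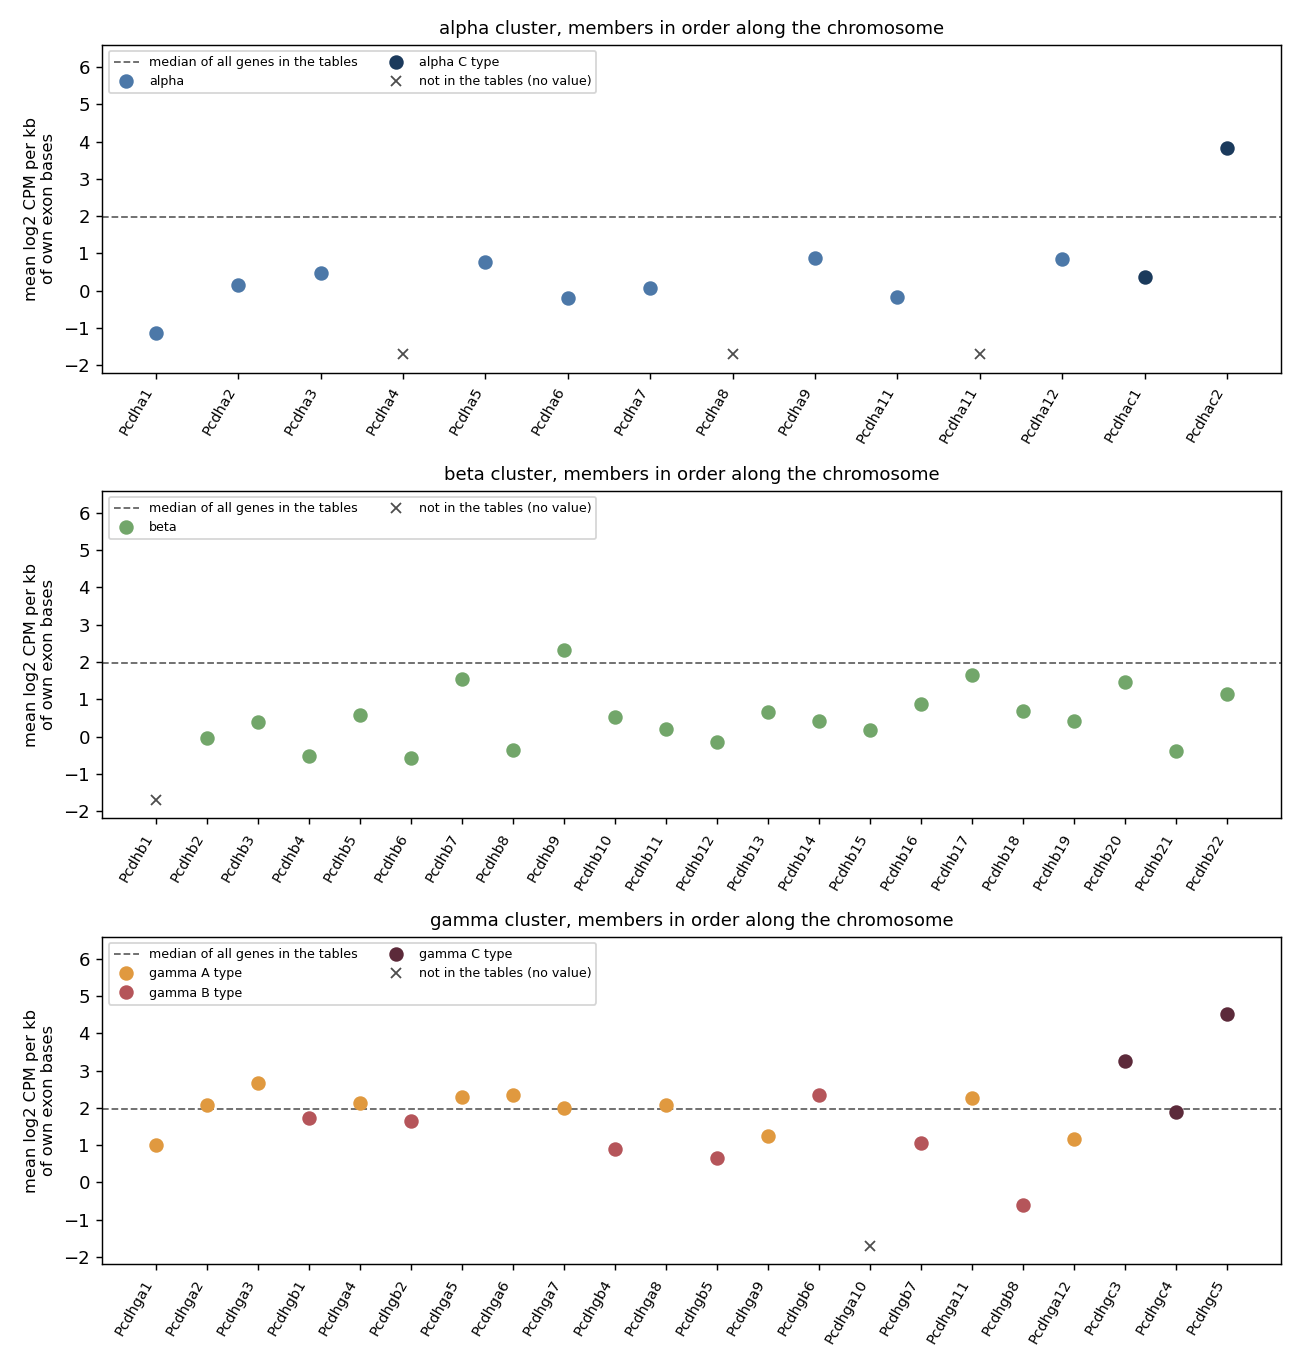
Mean log2 CPM per kb of own exon bases (vertical axis) of each member, in order along the alpha, beta and gamma clusters (horizontal axis); each point is the authors' mean over libraries. The dashed line is the median of all genes at 1.98, crosses are members with no value, and the second Pcdha11 is the annotated gene that is not in the tables. Pcdhgc5 at 4.53 and Pcdhac2 at 3.82 stand at the ends of their clusters.

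Among C-type isoforms the levels were far apart. Pcdhgc5, the last gene of the gamma cluster, which is known to bind GABA-A receptors at inhibitory synapses, had the highest level of the family at 6.73 log2 CPM, or 4.53 per kb, at percentile 88.2 of all genes per kb. Pcdhac2, the last alpha gene, which is known for the spacing of serotonergic axons, followed at 5.41 log2 CPM, or 3.82 per kb. Pcdhgc3, which is known to restrain Wnt signalling and to promote dendrite branching, stood at 5.03 log2 CPM, or 3.27 per kb. These 3 held the first 3 places of the 53 members with and without length scaling.

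The other C-type isoforms were lower. Pcdhgc4, which is known for its role in the survival of neurons, had 3.68 log2 CPM, or 1.88 per kb, just below the all-gene median per kb and 6.24-fold below Pcdhgc5. Pcdhac1 had 1.72 log2 CPM, or 0.37 per kb, 10.9-fold below Pcdhac2 and within the range of the variable alpha isoforms. The order of the upper isoforms moved with the length used. Pcdhgc3 shares 1559 exon bases with an antisense gene (BC037039), and with bases on either strand treated as shared it stood at 4.16 per kb, above Pcdhac2. That rise came from the shorter length alone, since its log2 CPM was left as it was.

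C-type isoforms held 63.2% of the summed alpha CPM and 46.9% of the summed gamma CPM. Pcdhac2 alone held 58.7% of the summed alpha CPM and 53.3% of it per kb. Pcdhgc5 held 32.8% of the summed gamma CPM, and 23.4% per kb. Pcdhgc5 and Pcdhac2 together held 27.4% of the summed CPM of all 53 members.

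The 9 listed variable alpha isoforms were the lowest type, with a median of 0.15 log2 CPM per kb and a range from -1.15 to 0.88, and none exceeded the all-gene median. Pcdha9 (0.88), Pcdha12 (0.83) and Pcdha5 (0.77) were the highest per kb. Pcdha1 (-1.15), Pcdha6 (-0.21) and the gene listed as Pcdha11 (-0.18) were the lowest. Pcdha1, the first gene of the cluster, had the lowest level of the family also without length scaling (0.17 log2 CPM), and Pcdha9 lay 4.08-fold above it per kb. The highest alpha gene, Pcdhac2, lay 7.66-fold above the highest variable alpha isoform. The gene listed as Pcdha11 carries the identifier ENSMUSG00000007440, and its start lies 117 bases from that of Pcdha10 in RefSeq. The unlisted gene of the same symbol, ENSMUSG00000102206, starts 146 bases from Pcdha11 in RefSeq. By its start the listed gene thus matches Pcdha10, but its listed symbol is kept here.

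The 21 listed beta genes had a median of 0.43 log2 CPM per kb and ranged from -0.57 to 2.32. Pcdhb9 was the highest (3.93 log2 CPM, or 2.32 per kb) and the only beta gene above the all-gene median on either scale. Pcdhb17 (1.64 per kb) and Pcdhb7 (1.53 per kb) followed. Pcdhb6 (-0.57), Pcdhb4 (-0.52) and Pcdhb21 (-0.39) were the lowest per kb. Pcdhb9 thus lay 7.39-fold above Pcdhb6. Beta genes differed in length more than the genes of the other clusters, with 2801 to 8695 exon bases. The longest gene, Pcdhb14, was in place 14 of the 53 members by log2 CPM and in place 37 per kb. Pcdhb22, the last beta gene, had 1.15 log2 CPM per kb and lay 2.92-fold above its neighbour Pcdhb21, with which it shares 455 exon bases.

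The gamma A and gamma B isoforms alternate along the gamma cluster and differ in the sequence of their variable exons. The 11 listed gamma A genes had a median of 2.08 log2 CPM per kb, and 8 of them exceeded the all-gene median. The 7 gamma B genes had a median of 1.06, and 1 of them (Pcdhgb6) exceeded it. The gamma A median lay 2.02-fold above that of gamma B, with ranges that overlapped. Gamma A was also the narrowest type of more than 3 members, with a 3.15-fold span from Pcdhga1 to Pcdhga3.

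Within gamma A, Pcdhga3 (2.66), Pcdhga6 (2.34) and Pcdhga5 (2.29) had the highest log2 CPM per kb of own bases on the same strand. With antisense bases taken out of the length, but no reads taken out, Pcdhga11 stood first in gamma A, at 3.32. Pcdhga1 (1.01), the first gene of the cluster, Pcdhga12 (1.16) and Pcdhga9 (1.26) had the lowest. Within gamma B, Pcdhgb6 (2.36), Pcdhgb1 (1.73) and Pcdhgb2 (1.64) were highest and Pcdhgb8 (-0.61), Pcdhgb5 (0.65) and Pcdhgb4 (0.91) were lowest. Pcdhgb8 is annotated as a polymorphic pseudogene, and Pcdhgb6 lay 7.86-fold above it. Without Pcdhgb8 the gamma A median exceeded that of gamma B by 0.72 on the log2 scale instead of 1.01.

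Place along the cluster followed level only loosely among variable isoforms. Spearman's rho between order and log2 CPM per kb was 0.42 over 9 alpha, 0.35 over 21 beta, -0.18 over 11 gamma A and -0.46 over 7 gamma B genes. Without length scaling it was 0.42, 0.49, 0.07 and -0.61. The rho between GC content of own bases and log2 CPM per kb was 0.03 in alpha, -0.14 in beta, 0.55 in gamma A and 0.71 in gamma B. Against log2 CPM without length scaling it was 0.03, -0.39, 0.28 and 0.43. Across all 48 variable isoforms its sign changed with the scale, from 0.14 per kb to -0.22 without length scaling. In gamma A, the rho between the number of own bases and log2 CPM per kb, which is computed from that number, was -0.58. With log2 CPM not scaled by length it was -0.17. Genes are not independent replicates here, since all values come from the same libraries and neighbours share exons and sequence.

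The annotation (GENCODE M21) holds 58 members, and 5 of them are not in the tables: Pcdha4, Pcdha8, the gene annotated as Pcdha11 with the identifier ENSMUSG00000102206, Pcdhb1 and Pcdhga10. Pcdha4 has 494 own bases of 5768, because a gene that spans the alpha and gamma clusters (Gm42416) covers 2410 of its bases outside the constant exons. Pcdhga10 has 2613 own bases on its strand, but all 2613 are covered by the antisense gene Gm26672, which is listed at -1.25 log2 CPM. The unlisted Pcdha11 has 4606 own bases on its strand and 1268 where antisense genes count as well. Pcdha8 and Pcdhb1 have own bases like those of listed members, 2478 and 2588, on either strand.

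Antisense genes overlapped 10 of the 53 listed and 3 of the 5 unlisted members. Of the 9 antisense genes, 1 (Gm26672) was in the tables. The library kit keeps the strand, but whether the counting used it is not given in the sources used here. Without it, reads of a member and of its antisense partner cannot be told apart. Taking antisense bases out shortened the length only, and the mean log2 CPM kept all its reads. A level per kb could therefore only rise or stay the same. By this length Pcdhb12, which shares 1927 of its 3034 bases with Gm37446, moved from -0.14 to 1.32 log2 CPM per kb. Pcdhga11, which shares 1381 bases with Gm26672, moved from 2.25 to 3.32. Pcdha12, at 1.18, passed Pcdha9 in alpha. Whether shared exons or low counts left the 5 members out of the tables was not tested.

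**Figure D3:**
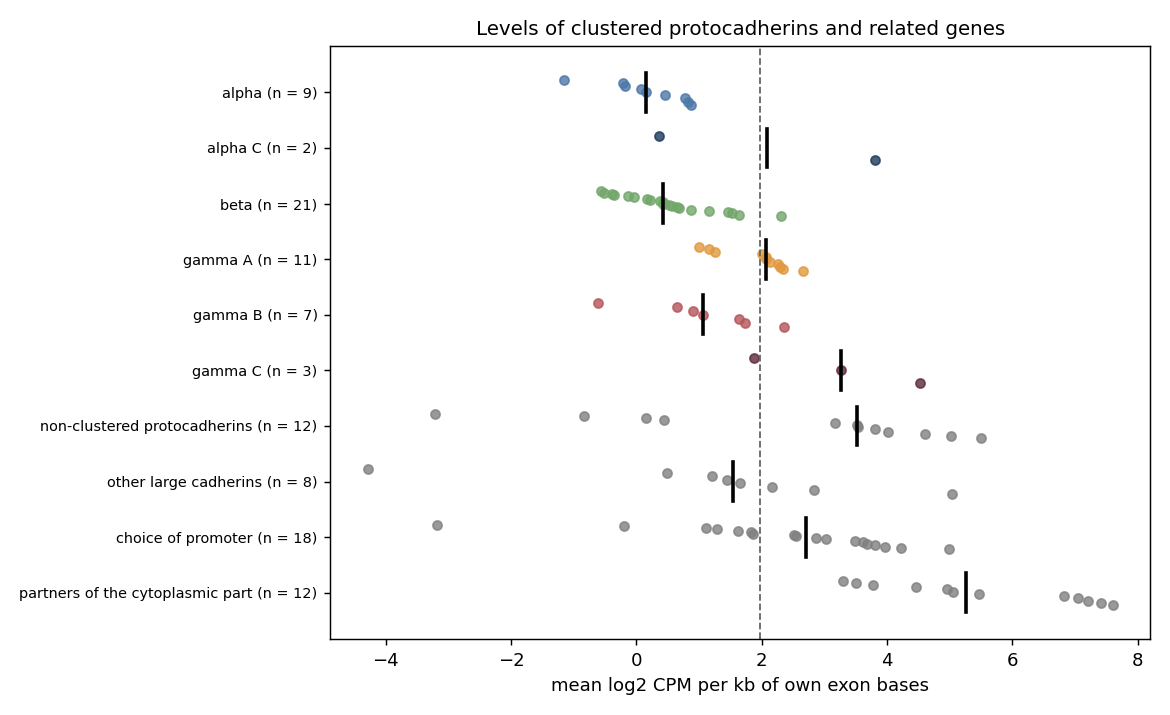
Mean log2 CPM per kb of own exon bases (horizontal axis) of each member by isoform type and of each gene in 4 related lists; each point is a gene, the thick bars are medians and the dashed line is the median of all genes at 1.98. Variable alpha isoforms all lie left of the line, and partners of the cytoplasmic part all lie right of it.

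Other members of the protocadherin family were set beside the clustered ones. The 12 non-clustered protocadherins, which lie outside the 3 clusters, were all listed and had a median of 3.53 log2 CPM per kb, at percentile 76.1. Pcdh1 (5.51) and Pcdh20 (5.02) were the highest, and Pcdh12 (-3.22) and Pcdh15 (-0.84) were the lowest. Per kb of own bases, Pcdhgc5 and Pcdhac2 exceeded the median of the non-clustered ones. With antisense bases taken out of the lengths on both sides that median was 3.70, and 3 members exceeded it (Pcdhgc5, Pcdhgc3 and Pcdhac2). Without length scaling the non-clustered median was 7.06 log2 CPM, and 0 of the 53 members exceeded it. The 8 other large cadherins had a median of 1.55 log2 CPM per kb, from Fat2 (-4.29) and Celsr1 (0.50) to Celsr3 (2.83) and Celsr2 (5.04), below the gamma median and above the alpha and beta medians. Without length scaling the order turned for gamma, since the median of these cadherins was 5.81 log2 CPM against 3.39 in the gamma cluster.

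All 18 genes of the machinery that chooses and silences protocadherin promoters were listed, with a median of 2.71 log2 CPM per kb, and 11 of 18 exceeded the all-gene median. The cohesin subunits Rad21 (4.98) and Smc1a (4.22) were highest per kb, and the DNA methyltransferase gene Dnmt3b (-3.19) and the DNA demethylase gene Tet1 (-0.19) were lowest. Ctcf, whose protein binds the variable promoters and their enhancers and brings them together with cohesin, had 3.97 log2 CPM per kb. The methyltransferase gene Dnmt3a stood at 1.83 log2 CPM per kb.

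The median of the partners of the cytoplasmic part lay above each single isoform, but not every partner did. The tail is shared, so that single isoforms do not give its level. Summed and not on the log2 scale, the listed isoforms had 98.6 CPM per kb in gamma and 26.4 in alpha. On that scale the gamma sum lay above the partners' median and the alpha sum below it. All 12 were listed, all 12 exceeded the all-gene median, and their median was 5.27 log2 CPM per kb at percentile 93.4. Nckap1 (7.61) and Cyfip2 (7.41), both of the WAVE complex that drives actin branching, were the highest. Ptk2 (3.29), the gene of focal adhesion kinase, which the shared tail inhibits, and Cyfip1 (3.50) were the lowest. The related kinase gene Ptk2b stood at 7.05 log2 CPM per kb.

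The tissue label was set beside 3 marker genes for each of 9 tissues or cell types. No list was for ventral against dorsal hippocampus, so that these markers cannot check that part of the label. Neuronal markers had a median of 7.94 log2 CPM per kb, and markers of dentate granule cells and pyramidal cells had medians of 3.62 and 4.55, each with 3 of 3 genes above the all-gene median. The granule cell marker Dsp, at 2.02, was only just above that median of 1.98. Astrocyte, oligodendrocyte and microglial markers had medians of 6.14, 7.41 and 4.11. Thalamic (-0.62) and striatal (0.27) markers had 0 of 3 genes each above the all-gene median. Choroid plexus markers had 2 of 3 genes above it, and the highest of them, Ttr, stood at 9.44 log2 CPM. The part of choroid plexus RNA in the levels of the members was not tested.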

How the data were processed

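RNA was sequenced by the authors from 12 libraries as 75-bp single-end reads with a stranded kit. Reads were aligned with STAR to GRCm38 (mm10), counted with featureCounts and analysed with limma after voom, with versions, low-expression filter and strand setting not given in the sources used here. Deposited were 2 tables, which hold the authors' mean log2 CPM per gene and, for CORT against VEH in each genotype, their fold changes, standard errors, t, F, p and FDR values. Those comparison columns were not used. No values per library were analysed, so depth per library is unknown and no test, error or interval was possible.

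Gene models were GENCODE M21, and 17557 of 17564 identifiers matched. The level per kb is the mean log2 CPM minus log2 of own bases in kb, for 17556 genes. Percentiles are over all genes with a value. The length script was tested on simulated exons. Python 3.11.15, pandas 2.3.3, scipy 1.17.1 and matplotlib 3.10.9 were used. Named are all C-type isoforms, the 3 highest and 3 lowest per kb of alpha, beta, gamma A and gamma B, the ends of each cluster, unlisted members, and the highest 2 and lowest 2 of each related list. Pcdhb12, Pcdhb14, Pcdhga11, Ctcf, Dnmt3a, Ptk2b, Dsp, Ttr and the overlapping genes fall outside that rule and were chosen after their values were seen. Members and lists were chosen with earlier results of these data known. Alternative lengths, strands and backgrounds were tried. No sequence is printed.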

Additional observations from a re-analysis of the deposited data

How the results depend on the processing

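No paired analysis was possible because the tables hold no values per library, and for the same reason no library could be left out in turn. The order gamma above beta above alpha was the same with own bases, all exon bases, no length scaling, antisense bases taken out, and read-length windows found in 1 gene as length (chosen after seeing the data). With all exon bases as length the alpha median was -0.72 and the gamma median 1.15 log2 CPM per kb, and gamma A exceeded gamma B by 1.00. Without length scaling the medians were 1.72, 2.39 and 3.39 log2 CPM, and gamma A exceeded gamma B by 0.59. With antisense bases taken out of the length, and reads kept, the beta and gamma medians were 0.53 and 2.08, and gamma A exceeded gamma B by 0.70. With windows of 75 bases the beta median was 0.60, and gamma A exceeded gamma B by 0.70. Without C-type isoforms the alpha median was 0.15 and the gamma median 1.87. Leaving out Pcdhgb8, also chosen after seeing the data, gave 0.72 for gamma A against gamma B. Among protein-coding genes only, the median percentiles were 17.4, 22.8 and 34.4 for alpha, beta and gamma. Of the 28 alternatives, 10 differed by less than 0.005, but 6 of these could not differ: every listed member lies above 0 log2 CPM, so that filter removed none, and both tables hold the same means. A level per kb rests on the gene model, and a member's low mean can hold many reads in few libraries or few reads in all.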
